A study of Homo sapiens with 6 samples.

Results

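The genes examined were DLEU1 and 9 genes that lie beside or inside it at 13q14, namely DLEU2, DLEU7, TRIM13, SPRYD7, KPNA3, EBPL, RCBTB1, PHF11 and RNASEH2B. They were 10 of the 24131 genes annotated here, and a histone mark region was counted as theirs if it overlapped the gene body or the 5 kb upstream of it in hg19. By this rule, 17 of 19705 H3K27ac regions and 51 of 58582 H3K4me3 regions of control cells belonged to the 10 genes, as did 18 of 17672 and 48 of 56943 regions of DLEU1 knockdown cells. The question was whether chromatin around the DLEU1 gene itself, in cis, differed after knockdown of its RNA.

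HSC3, an established oral squamous cell carcinoma (OSCC) line, was transfected with a control siRNA (siCONT) or with a single siRNA against DLEU1 (siDLEU1), and both groups were collected at 72 h with no other agent named. ChIP-seq was performed with antibodies to H3K27ac and H3K4me3, with 1 library for each siRNA and mark, so nothing was replicated and no test could be run. The siRNA acts on the RNA, which was not measured in these libraries, so the extent of knockdown could not be checked from them. H3K27ac or H3K4me3 from fewer cells and less of the mark per cell cannot be told apart in such bulk samples.

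H3K4me3 is deposited at the start of genes that are being transcribed or are poised for it, and H3K27ac marks active promoters and enhancers. The 13q14 region is known for its deletion in chronic lymphocytic leukemia. DLEU1 and DLEU2 are long noncoding RNA (lncRNA) genes that overlap and run in opposite directions. A proximal start of DLEU2 lies beside that of DLEU1, and its canonical, distal start lies 43.4 kb inside DLEU1. DLEU2 is the host gene of miR-15a and miR-16-1, which repress BCL2. Some lncRNAs act in cis on genes near their own site of transcription, whereas others act elsewhere.

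On GRCh37, DLEU1 spans chr13:50656305-51480992 on the plus strand and DLEU2 spans chr13:50530806-50699856 on the minus strand. TRIM13, on the plus strand at chr13:50570024-50594617, lies inside DLEU2, and DLEU7, on the minus strand at chr13:51093500-51418075, lies inside DLEU1. To the left are PHF11 at chr13:50069746-50103117 (plus), RCBTB1 at chr13:50106082-50159694 (minus), EBPL at chr13:50234810-50265622 (minus), KPNA3 at chr13:50273456-50366818 (minus) and SPRYD7 at chr13:50486838-50510626 (minus). RNASEH2B begins to the right of DLEU1, at chr13:51483883-51598256 (plus). Regions inside 2 overlapping genes were counted for both, so the genes are not independent of each other.

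The promoters printed below were taken from RefSeq (GRCh38.p14) and placed on GRCh37 by an exact match. Each is 300 bases long, spans a start and is written on the strand of its gene, with CpG dinucleotides in capitals. The first is that of DLEU1 (chr13:50656055-50656354, plus strand). The second is the distal promoter of DLEU2 (chr13:50699628-50699927, minus strand). The third is that of KPNA3 (chr13:50366769-50367068, minus strand), which lies beside a region where H3K4me3 was higher after knockdown. Of its 300 bases, H3K4me3 covered 267 in siCONT cells and 257 in siDLEU1 cells. The last is that of DLEU7 (chr13:51417779-51418078, minus strand), which carried neither mark.
DLEU1: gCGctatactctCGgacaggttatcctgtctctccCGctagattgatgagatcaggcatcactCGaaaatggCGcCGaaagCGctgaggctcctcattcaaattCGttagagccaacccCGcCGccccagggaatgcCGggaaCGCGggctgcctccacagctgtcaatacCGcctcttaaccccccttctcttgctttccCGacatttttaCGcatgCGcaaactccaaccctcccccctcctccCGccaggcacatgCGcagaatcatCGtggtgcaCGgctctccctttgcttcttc
DLEU2 distal: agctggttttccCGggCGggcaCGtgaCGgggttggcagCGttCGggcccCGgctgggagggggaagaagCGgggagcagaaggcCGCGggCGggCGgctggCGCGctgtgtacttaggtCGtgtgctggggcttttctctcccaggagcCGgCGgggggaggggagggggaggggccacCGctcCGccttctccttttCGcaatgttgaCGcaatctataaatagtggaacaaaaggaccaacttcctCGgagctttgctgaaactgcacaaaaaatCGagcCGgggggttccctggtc
KPNA3: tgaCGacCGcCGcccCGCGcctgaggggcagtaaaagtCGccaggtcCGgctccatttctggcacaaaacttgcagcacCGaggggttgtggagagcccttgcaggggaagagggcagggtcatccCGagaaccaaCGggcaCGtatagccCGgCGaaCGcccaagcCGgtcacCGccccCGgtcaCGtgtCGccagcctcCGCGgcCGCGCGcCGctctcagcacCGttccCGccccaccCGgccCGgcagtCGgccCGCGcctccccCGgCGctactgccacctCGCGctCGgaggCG
DLEU7: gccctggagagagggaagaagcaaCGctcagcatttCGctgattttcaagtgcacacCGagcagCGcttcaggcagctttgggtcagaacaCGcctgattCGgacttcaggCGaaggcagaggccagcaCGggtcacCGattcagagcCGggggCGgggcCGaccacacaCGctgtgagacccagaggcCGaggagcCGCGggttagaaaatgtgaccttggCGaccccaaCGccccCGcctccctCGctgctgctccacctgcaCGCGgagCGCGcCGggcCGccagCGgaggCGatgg

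These promoters held 21, 24, 38 and 28 CpGs, respectively, against a median of 14 over 35116 RefSeq promoters of the same length (quartiles, 4 and 28). The CpG content of the unmarked DLEU7 promoter was therefore between those of DLEU2 and KPNA3. A second RefSeq promoter of DLEU7, at chr13:51418026-51418325, held 11 CpGs. RefSeq promoters were matched for 8 of the 10 genes, with PHF11 and TRIM13 not among them.

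The DLEU1 promoter and the proximal promoter of DLEU2 (chr13:50656128-50656427, 23 CpGs) share 227 bp and are read in opposite directions. Their common part holds the letters GCGCATG, searched on both strands, at 2 places. This motif is present in 4.43% of all promoters and in no other matched promoter of the 10 genes. TATAAA was found only in the distal DLEU2 promoter among these, against 11.5% of all promoters. GGGCGG was found in every matched gene, and is present in 45.0% of promoters. CCAAT was found in the promoters of RCBTB1, EBPL, RNASEH2B and, in its second entry, DLEU7 (34.6% of all promoters). Neither CCGGAAG (10.3%) nor the core of the interferon-stimulated response element (3.57%), both also searched on both strands, was found in these windows. A match of letters describes the sequence only.

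The 2 microRNAs of DLEU2 have the same seed (bases 2 to 8, in capitals), as their mature RefSeq sequences show.
miR-15a-5p: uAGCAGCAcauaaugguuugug
miR-16-5p: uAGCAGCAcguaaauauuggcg
Their hairpins lie on the minus strand at chr13:50623255-50623337 and chr13:50623109-50623197, inside DLEU2. In control cells the nearest H3K4me3 region was 6.35 kb from the miR-15a hairpin, and in siDLEU1 cells it was 29.0 kb away. Both of these regions were weak, with 27 and 24 fragments at their summits. The nearest H3K27ac region was 30.5 kb away in control cells and 30.8 kb in siDLEU1 cells.

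Peak lists carry no read counts. The fragments at the summit of each region and the local background there were therefore solved from its deposited fold enrichment and p. By this estimate the depth was 21.5 and 29.4 M reads for H3K27ac in siCONT and siDLEU1 cells, and 28.4 and 22.3 M reads for H3K4me3. A region was marked at the transcription start site (TSS, within 1 kb) of all 10 squamous epithelial marker genes for both marks in siCONT cells. In siDLEU1 cells this was true of 10 for H3K4me3 and 9 for H3K27ac, without DSG3. Of 4 leukocyte markers only CD14 was marked, of 4 fibroblast markers only COL1A1, and of 2 endothelial markers none, in each list.

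**Figure D1:**
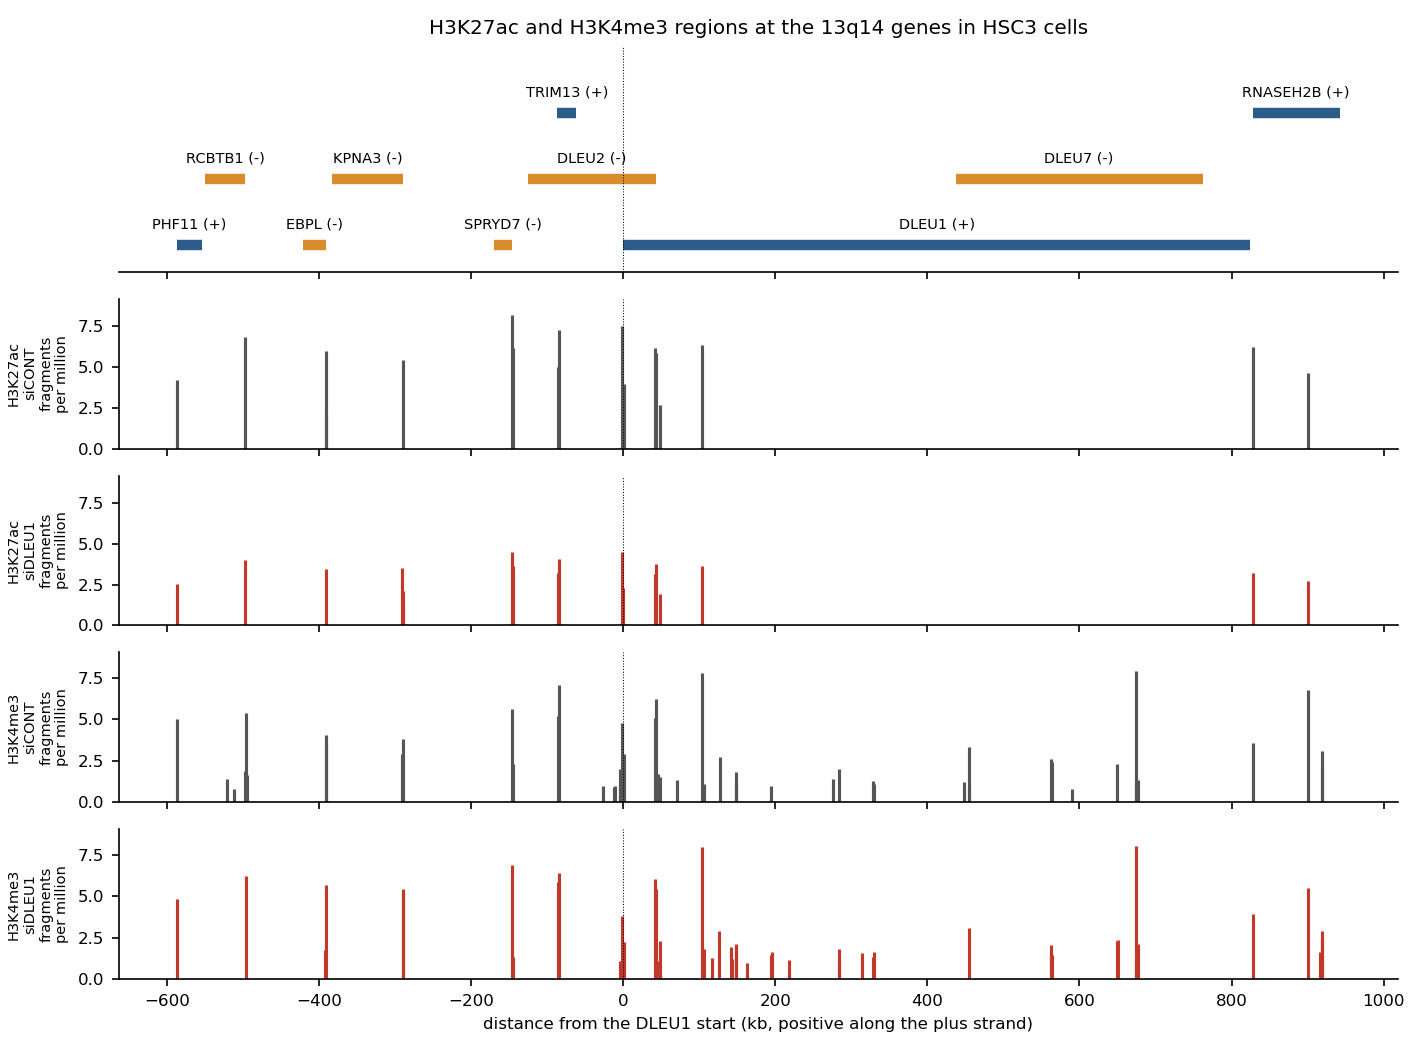
Positions of the 10 genes (top, with strand) and of their regions in the 4 peak lists. The x axis is the distance from the DLEU1 start in kb, and each vertical line is a region whose height is its number of fragments at the summit per 1000000 reads. H3K27ac regions stand at the same places in siCONT and siDLEU1 cells at lower heights, whereas the body of DLEU1 holds many low H3K4me3 regions.

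Most H3K27ac regions of the 10 genes were still called after knockdown. Of the 17 control regions, 16 were overlapped by a siDLEU1 region (94.1%, 95% Wilson interval 73.0 to 99.0%, counting error only). Loss of a region at any gene was seen for 19.0% of H3K27ac regions, and here 1 region was lost. With only regions of a −log10 q of at least 10 in both lists, the share overlapped was 82.4% of 17, and when the overlap had to reach 50% in each region it was 88.2%. Both values lie within the interval. All 18 siDLEU1 regions overlapped a control region, and 1.13% of siDLEU1 regions at all genes did not. The lost region was a short one of 252 bp upstream of EBPL (chr13:50265949-50266200), with 46 fragments and a rank at percentile 24.8 in control cells. Here a percentile is the rank of a region's fold enrichment within its own list, and 0 stands for no region.

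H3K4me3 regions were called less alike in the 2 libraries. Of the 51 control regions, 39 were overlapped in siDLEU1 cells (76.5%, 95% Wilson interval 63.2 to 86.0%), and 12 were not. The share not overlapped was 23.2% over all genes. Of 48 siDLEU1 regions, 10 were new, against 18.0% over all genes. The 12 control regions that were not called in siDLEU1 cells were weak, with percentiles between 1.54 and 37.2, and the 10 new ones lay between 8.89 and 48.5. Within 1 kb of a TSS of the 10 genes, 17 of 17 control H3K4me3 regions were overlapped, and 13.5% of such control loci at all genes were not called in siDLEU1 cells. Of 18 siDLEU1 regions there, 3 were new, against 8.73% of such loci at all genes, and all 3 lay at starts inside DLEU1.

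The length covered by H3K27ac at the 10 genes was 20070 bp in siCONT cells and 16110 bp in siDLEU1 cells, a ratio of 0.803, and the ratio over the genome was 0.714. For H3K4me3 it was 41776 and 38337 bp, a ratio of 0.918 at the 10 genes and 0.917 over the genome. Covered length moves with how much was called, and the siDLEU1 lists hold fewer regions of both marks.

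For a direct comparison, overlapping regions of the 2 conditions were joined into 1 locus, and the fragments at its highest summit were expressed per 1000000 recovered reads of the library (FPM). The highest summit of a locus could lie at different places in the 2 conditions. FPM of H3K27ac was lower at all 16 loci called in both conditions, with ratios (siDLEU1 over siCONT) from 0.509 to 0.718 and a median of 0.585. Less of the mark and weaker enrichment in the 1 siDLEU1 library cannot be told apart by FPM. The median over 14174 loci at all genes was 0.584 (quartiles, 0.525 and 0.657). Of the 16 loci, 15 were lower by at least 1.5 fold, as were 77.4% of loci at all genes. The 95% exact interval of each ratio, which covers counting error only, included the median of all loci at 16 of 16 loci. Over all genes, 2.65% of H3K27ac loci had an interval below the median and 4.19% above it. The regions were narrower in siDLEU1 cells at 14 of the 16 loci, as at 91.3% of loci at all genes. Thus a departure of any H3K27ac locus of the 10 genes from the rest of the genome was not detectable at this depth.

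H3K4me3 varied more from locus to locus. Of 58 loci, 36 were called in both conditions, with ratios from 0.537 to 1.80 and a median of 1.04, against a median of 1.09 over 31189 loci at all genes (quartiles, 0.879 and 1.34). The interval lay below the genome median at 6 of 36 loci (11.4% of loci at all genes) and above it at 2 (12.3% of loci at all genes). Changes of at least 1.5 fold were found at 4 loci downward (7.29% over all genes) and 4 upward (14.8% over all genes). Regions were narrower at 22 of 36 loci (63.4% of loci at all genes). The loci concerned are described gene by gene.

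**Figure D2:**
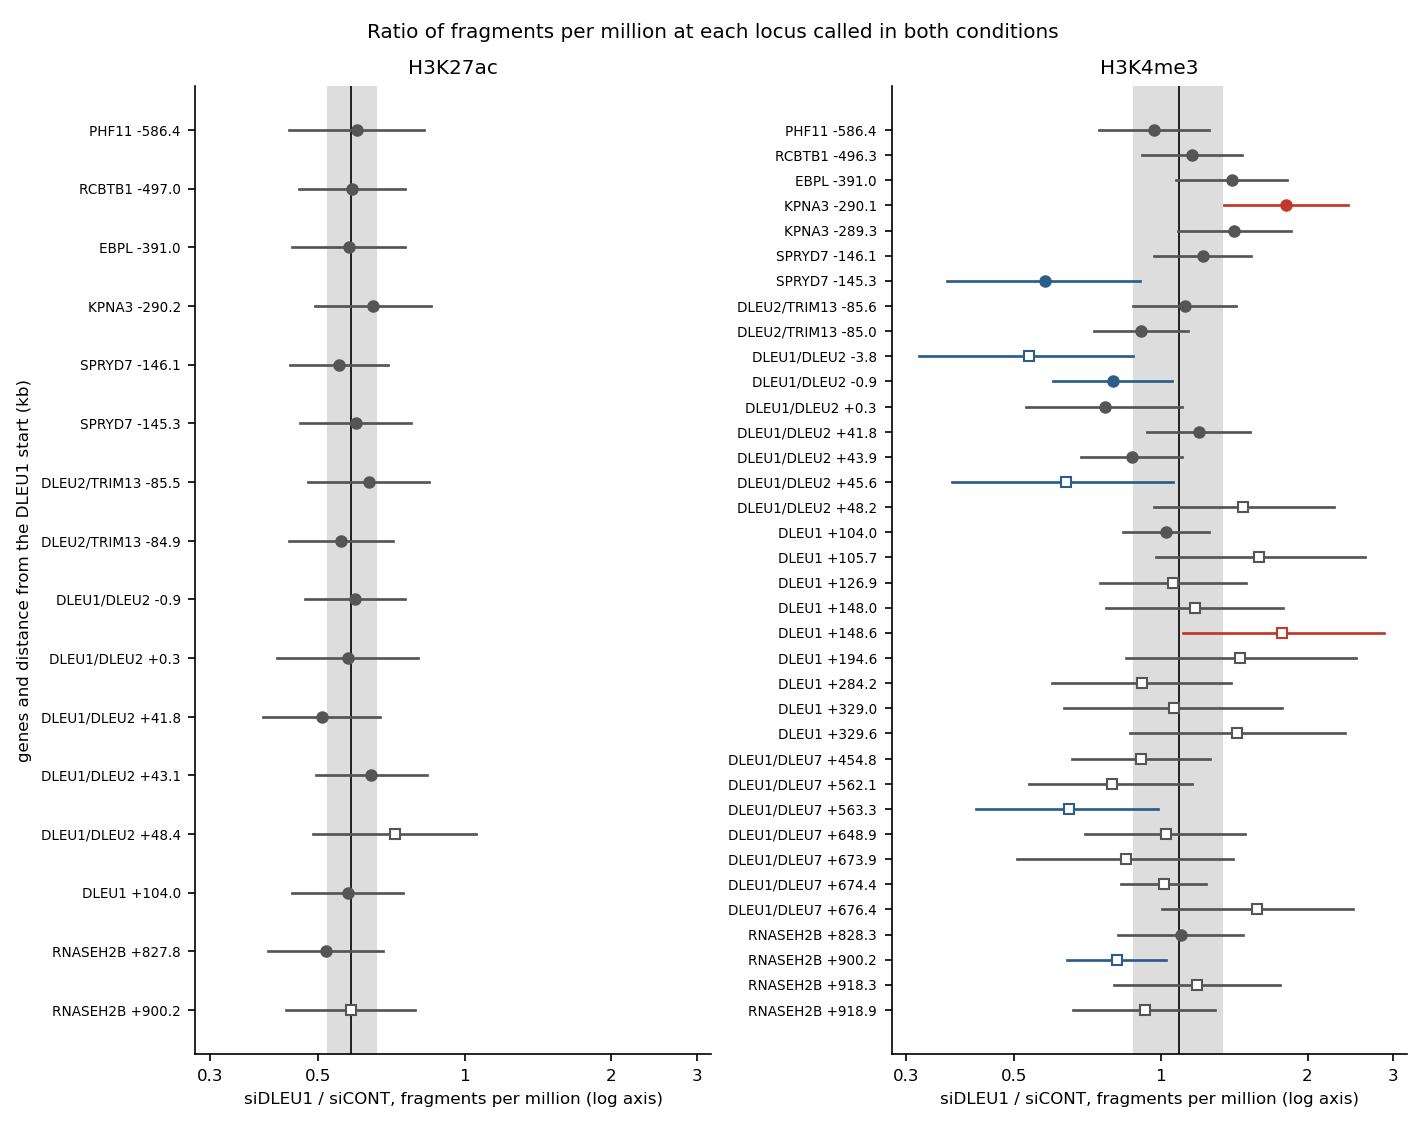
Ratio of FPM in siDLEU1 over siCONT cells (log x axis) at each locus called in both conditions, named by gene and by distance from the DLEU1 start in kb. Bars are 95% exact counting intervals, filled circles are loci within 1 kb of a TSS and open squares other loci. The black line and the grey band are the median and quartiles over loci at all genes. All 16 H3K27ac bars cross the line, whereas for H3K4me3 blue bars (6) lie below it and red bars (2) above it.

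The DLEU1 start lies in a gap between 2 regions of each mark. In control cells, an H3K27ac region ended 190 bp to the left of the start of the canonical transcript (chr13:50653874-50656117) and another began 13 bp to its right (chr13:50656320-50657318). This gap was 202 bp in siCONT cells and 248 bp in siDLEU1 cells for H3K27ac, and 263 and 282 bp for H3K4me3. Of the 300 bp of the DLEU1 promoter whose sequence is given, H3K27ac covered 98 bp in siCONT cells and 52 bp in siDLEU1 cells.

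On the left side of this start, the H3K27ac summit held 162 fragments in siCONT cells and 132 in siDLEU1 cells (7.54 and 4.49 FPM, ratio 0.595, interval 0.469 to 0.754). On the right side it held 85 and 67 fragments (3.96 and 2.28 FPM, ratio 0.576, interval 0.412 to 0.803). Both ratios are close to the median over all genes. H3K4me3 was lower on both sides. To the left, 136 fragments in siCONT cells compared with 85 in siDLEU1 cells (4.78 and 3.81 FPM), a ratio of 0.796 (interval 0.60 to 1.05) that lay below the genome median. To the right, 83 fragments compared with 50 (2.92 and 2.24 FPM), a ratio of 0.768 whose interval (0.529 to 1.10) reached just past that median. The percentile changed from 75.3 to 59.2 on the left and from 68.0 to 53.9 on the right.

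H3K4me3 farther upstream of DLEU1, inside the DLEU2 body, was also lower. A region at chr13:50652282-50653171 had 57 fragments in siCONT cells and 24 in siDLEU1 cells, a ratio of 0.537 (interval 0.318 to 0.879), and its percentile was 62.3 in siCONT cells and 6.77 in siDLEU1 cells. In the part of the DLEU2 body to the left of the DLEU1 start there were 9 H3K4me3 loci, of which 5 were called only in siCONT cells and 0 only in siDLEU1 cells. Over all genes, 21.2% of H3K4me3 loci were called only in siCONT cells and 15.4% only in siDLEU1 cells, and this stretch was chosen after its values were seen. The 5 regions were weak, with 24 to 32 fragments and percentiles from 4.0 to 31.0. The nearest of them to the microRNA hairpins, at chr13:50629690-50630130, had 27 fragments. Of the 4 loci called in both conditions there, 2 had an interval below the genome median. The 2 others were those at TRIM13.

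The distal start of DLEU2 carried strong regions of both marks. H3K27ac at chr13:50698794-50700701 held 126 fragments in siCONT and 111 in siDLEU1 cells (ratio 0.643, interval 0.494 to 0.837), and the region beside it at chr13:50697625-50698669 held 132 and 92, the lowest H3K27ac ratio of the 10 genes (0.509, interval 0.386 to 0.669). H3K4me3 at the same places had ratios of 0.871 (177 and 121 fragments) and 1.19 (144 and 135 fragments), and both intervals included the genome median. The distal promoter sequence was covered by both marks over all of its 300 bp in both conditions. Against the median over loci at TSSs only (1.12), the interval of the first of these (0.686 to 1.10) and that on the right side of the DLEU1 start also lay below. The difference between the 2 starts was not tested.

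An annotated start inside DLEU1 had the highest H3K4me3 rank of the 10 genes in siCONT cells. At chr13:50759779-50761342 it held 221 fragments in siCONT and 178 in siDLEU1 cells (7.77 and 7.98 FPM, ratio 1.03, interval 0.838 to 1.26), with percentiles of 99.3 and 98.9. H3K27ac at chr13:50760017-50760958 held 136 and 107 fragments, a ratio of 0.575 (interval 0.442 to 0.746). Both intervals included the genome medians of their marks, and the difference from the main DLEU1 start was not tested.

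Beyond DLEU2, the body of DLEU1 carried H3K4me3 mostly without H3K27ac. Between the ends of DLEU2 and DLEU7 there were 21 H3K4me3 loci, of which 11 were called in both conditions. Another 2 were called only in siCONT cells (21.2% of loci at all genes) and 8 only in siDLEU1 cells (15.4%). The 8 regions called only in siDLEU1 cells had 22 to 43 fragments and percentiles from 8.89 to 45.2. Among them were 3 within 1 kb of annotated DLEU1 starts, at chr13:50798384-50798666 (43 fragments, percentile 14.7), chr13:50798912-50799270 (27 fragments, percentile 28.5) and chr13:50970563-50970833 (35 fragments, percentile 40.8). In the part of DLEU1 shared with DLEU7 there were 10 loci. Of these, 3 were called only in siCONT cells (21.2% over all genes) and 0 only in siDLEU1 cells (15.4%). These 3 had 23 to 35 fragments. These stretches were also chosen after their values were seen, and the difference between them was not tested. Outside DLEU2 and DLEU7, the locus of DLEU1 with the highest ratio, at chr13:50804704-50805048, had 33 and 46 fragments (ratio 1.78, interval 1.11 to 2.87). The largest difference upward in H3K4me3 percentile (2.02 and 62.4) was beside it at chr13:50804030-50804634, where 51 and 47 fragments gave a ratio of 1.17 (interval 0.773 to 1.78) and the local background was 3 in siCONT and 0.614 in siDLEU1 cells. The locus with the lowest ratio was that at chr13:50701583-50702003, with 48 and 24 fragments (ratio 0.637, interval 0.373 to 1.06).

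DLEU7, a protein-coding gene also named for leukemia deletions, carried no H3K27ac region in either condition. No region of either mark in any of the 4 lists lay within 1 kb of its 6 TSSs. The nearest H3K27ac region to its promoter was 65.6 kb away in siCONT cells. Inside its body, however, was the H3K4me3 locus with the most fragments of the 10 genes, at chr13:51330408-51332021. It held 225 fragments in siCONT and 179 in siDLEU1 cells (7.91 and 8.02 FPM, ratio 1.01, interval 0.828 to 1.24), with percentiles of 98.7 and 98.9. A weaker locus at chr13:51219034-51220871 was called as 1 region in siCONT and 2 in siDLEU1 cells. Its highest summits lay at different places, 563.3 and 562.9 kb from the DLEU1 start, and held 69 and 35 fragments. The interval of this locus (0.418 to 0.984, ratio 0.646) lay below the genome median. The percentile was 72.1 in siCONT and 19.1 in siDLEU1 cells at chr13:51217780-51218743 (74 and 46 fragments, ratio 0.792, interval 0.536 to 1.16), where the local background was 0.80 in siCONT and 2 in siDLEU1 cells. It was 52.0 and 11.8 at chr13:51329964-51330344 (42 and 28 fragments, ratio 0.850, interval 0.507 to 1.40) and 30.5 and 58.1 at chr13:51332537-51332957 (38 and 47 fragments, ratio 1.58, interval 1.01 to 2.48).

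TRIM13, a RING-type ubiquitin ligase encoded inside DLEU2, had 2 regions of each mark at its start. H3K27ac held 108 and 94 fragments at chr13:50570344-50570945 and 156 and 119 at chr13:50571138-50572159, giving ratios of 0.636 (interval 0.477 to 0.846) and 0.557 (interval 0.435 to 0.712). H3K4me3 held 148 and 130 fragments at chr13:50570280-50570998 and 200 and 143 at chr13:50571142-50572550, giving ratios of 1.12 (interval 0.877 to 1.43) and 0.911 (interval 0.730 to 1.13). None of these differed from the genome median beyond counting error.

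KPNA3, an importin alpha that carries proteins with a nuclear localization signal into the nucleus, had the highest H3K4me3 ratio of the 10 genes. At chr13:50365152-50366734 it held 82 fragments in siCONT and 116 in siDLEU1 cells (2.88 and 5.20 FPM, ratio 1.80, interval 1.35 to 2.42), above the genome median. Beside it, at chr13:50366802-50367880, 109 and 121 fragments gave a ratio of 1.41 (interval 1.08 to 1.85), which included that median. The percentile of the first was 51.5 in siCONT and 87.6 in siDLEU1 cells, and its local background was 2 in siCONT and 1 in siDLEU1 cells. H3K27ac at KPNA3 was called as 1 region of 2170 bp in siCONT cells and as 3 regions totalling 1343 bp in siDLEU1 cells. Its summit held 117 and 104 fragments, a ratio of 0.649 (interval 0.494 to 0.853). The KPNA3 promoter sequence begins inside the second H3K4me3 locus and ends in the gap between both.

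SPRYD7, which encodes a SPRY domain protein, had the H3K27ac region of the highest rank. At chr13:50509534-50510577 it held 176 and 133 fragments (8.19 and 4.52 FPM, ratio 0.552, interval 0.437 to 0.695), with percentiles of 93.6 and 98.5. Thus it ranked higher in the siDLEU1 list with a lower FPM. Upstream of it, at chr13:50510693-50511504, 132 and 108 fragments gave a ratio of 0.598 (interval 0.459 to 0.777), with percentiles of 90.8 and 72.3. The H3K4me3 ratio was not the same on the 2 sides of this start, and this difference was not tested. Over the gene, at chr13:50509270-50510556, 160 and 153 fragments gave a ratio of 1.22 (interval 0.970 to 1.53). On the upstream side, at chr13:50510750-50511497, 66 and 30 fragments gave a ratio of 0.579 (interval 0.363 to 0.905), below the genome median.

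At RCBTB1, named for its RCC1 and BTB domains, 3 H3K4me3 regions of siCONT cells were called as 1 region of 3231 bp in siDLEU1 cells (chr13:50159010-50162362 in all), with 153 and 139 fragments at the highest summits (ratio 1.16, interval 0.913 to 1.47). Its H3K27ac region held 147 and 118 fragments (ratio 0.586, interval 0.456 to 0.752). At EBPL, a homologue of the sterol isomerase EBP, 2 H3K4me3 regions were likewise called as 1, with 115 and 126 fragments and a ratio of 1.40 (interval 1.08 to 1.81). H3K27ac at its start held 129 and 102 fragments (ratio 0.578, interval 0.441 to 0.755). Both H3K4me3 intervals included the genome median.

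PHF11, which encodes a PHD finger protein, had the largest difference downward in the rank of its strongest region for both marks. Its H3K27ac region was at percentile 53.0 in siCONT and 18.3 in siDLEU1 cells, and its H3K4me3 region at 90.8 and 70.1. However, the H3K27ac fragments were 90 and 74 (ratio 0.601, interval 0.436 to 0.826) and the H3K4me3 fragments 142 and 108 (ratio 0.969, interval 0.748 to 1.25), both with an interval that included the genome median. The local background recovered at this summit was 1 in siCONT and 2 in siDLEU1 cells for both marks. The control reads recovered were 7.18 M in siCONT and 6.73 M in siDLEU1 cells for either mark. The 2 marks may therefore share a control, so their changes in rank cannot be taken as independent.

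RNASEH2B, which encodes a subunit of the RNase H2 complex that removes ribonucleotides from DNA, had a region of each mark at its start and others inside the gene. At the start, H3K27ac held 134 and 95 fragments (ratio 0.518, interval 0.394 to 0.679) and H3K4me3 102 and 88 (ratio 1.10, interval 0.817 to 1.48). Inside the gene, H3K4me3 at chr13:51555773-51557041 held 193 and 123 fragments, and its ratio of 0.812 (interval 0.642 to 1.02) lay below the genome median. H3K27ac at this place (chr13:51555925-51556680) held 100 and 80 fragments, with a ratio of 0.584 (interval 0.430 to 0.792).

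Ranks of fold enrichment gave a more varied picture than fragments did. The largest differences upward in H3K27ac percentile were at the distal DLEU2 start (72.9 in siCONT and 86.3 in siDLEU1 cells), the RNASEH2B start (52.1 and 62.9) and the left region of TRIM13 (69.2 and 78.7). Downward, the locus inside RNASEH2B (74.2 and 48.0) followed PHF11. Over the 9 genes with H3K27ac in siCONT cells, the median change in percentile of the strongest region was -5.32 (5 of 9 lower), and over 14365 genes it was -4.77, with 63.3% lower. For H3K4me3 it was -0.065 over 10 genes (5 of 10 lower), and 0.183 over 15424 genes, with 48.5% lower. With only regions within 1 kb of a TSS the H3K27ac median was 0.871 (4 of 9 lower), of the opposite sign. Over all genes it was -4.59 in this window, with 62.8% lower. The strongest region of a gene was not always at the same place in both conditions. At DLEU2 it was at the TRIM13 start in siCONT cells (91.6) and at the distal DLEU2 start in siDLEU1 cells (86.3). At RNASEH2B it was the locus inside the gene (74.2) and then the start (62.9). Over the 16 joined loci, the median change in percentile was 2.08, against -5.16 over loci at all genes. Fold enrichment is the scaled number of fragments at a summit over the local background, after 1 is added to each.

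This background, the number of control fragments that MACS2 set against the summit, differed at 14 of 16 H3K27ac loci. Over all genes it was the same at only 932 of 14174 loci, so a difference was usual. In all, the percentile was lower in siDLEU1 cells at 6 of 16 loci (62.6% of loci at all genes) and higher at 10 (37.4%). The background was higher in siDLEU1 cells at 5 loci (4551 of 14174 over all genes). All 5 had a lower percentile there, as did 93.1% of such loci at all genes. The background was lower at 9 loci (8691 of 14174 over all genes). All 9 had a higher percentile, against 55.5% of such loci at all genes. The rank correlation of the change in percentile with the ratio of backgrounds was -0.894 over the 16 loci, and that with the FPM ratio was 0.003. Over 14174 loci at all genes these were -0.722 and 0.479. Of the 36 H3K4me3 loci, 21 had a lower percentile (52.0% of loci at all genes) and 15 a higher one (48.0%). With a higher background, 12 of 16 had a lower percentile (79.7% over all genes), and with a lower background 11 of 19 had a higher one (64.4% over all genes). The corresponding correlations were -0.529 and 0.792 over 36 loci, and -0.553 and 0.707 over 31189. These are descriptions across loci of the same libraries, and fold enrichment is itself computed from both quantities. The part of the background in the rank changes of single genes such as PHF11 and KPNA3 was not tested.

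**Figure D3:**
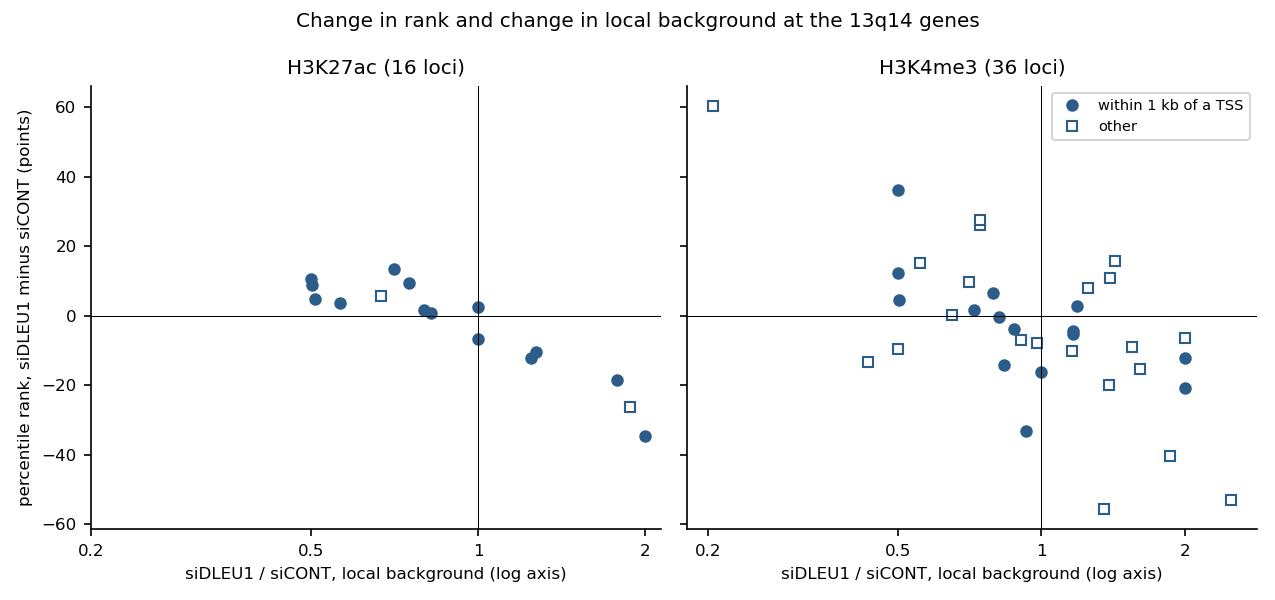
Change in percentile rank of fold enrichment (siDLEU1 minus siCONT, in points) against the ratio of local background (siDLEU1 over siCONT, log x axis) at loci of the 10 genes called in both conditions. Filled circles are loci within 1 kb of a TSS and open squares other loci. For H3K27ac (16 loci) all 5 loci to the right of 1 lie below 0 and all 9 to the left lie above it, and for H3K4me3 (36 loci) the points scatter more widely.

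H3K27ac of the 10 genes was found only together with H3K4me3, but not the reverse. All 17 control H3K27ac regions of the 10 genes overlapped an H3K4me3 region, as did 89.4% over all genes. In contrast, 19 of 51 control H3K4me3 regions overlapped H3K27ac (37.3%, 95% Wilson interval 25.3 to 51.0%), and over all genes this was 39.2%. In siDLEU1 cells the values were 17 of 48 (35.4%) at the 10 genes and 34.3% over all genes. The H3K27ac regions of siCONT cells had a median GC content of 58.9% and a median observed over expected CpG ratio of 0.772. For the H3K4me3 regions the values were 47.9% and 0.201.

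Other genes were grouped by distance from DLEU1. Regions that they shared with the 10 genes were counted for both. The 4 other genes with H3K27ac within 1 Mb had ratios from 0.513 to 0.518, the highest of which equalled that of the RNASEH2B start. These ratios lay below the lower quartile over other chromosomes (0.528). The median change in percentile of these 4 genes was -22.4 (2 of 4 lower), against -4.82 over other chromosomes. This difference was not tested. The median ratio of the highest FPM was 0.586 over the 9 marked genes of 13q14, and 0.515 over the 4 genes called in both conditions among 7 others within 1 Mb of DLEU1. It was 0.593 at 1 to 2 Mb (13 genes), 0.565 at 2 to 5 Mb (25 genes), 0.584 over the rest of chromosome 13 (194 genes) and 0.580 over other chromosomes (13174 genes). For H3K4me3 the median was 1.01 over the 10 genes, with quartiles of 0.926 and 1.20. It was 1.09, 1.17 and 1.24 in the 3 bins up to 5 Mb, 1.14 over the rest of chromosome 13 and 1.15 over other chromosomes, and the median of the 10 genes lay within the quartiles of other chromosomes (0.980 and 1.35). With only regions within 1 kb of a TSS, the H3K4me3 median was 1.10 over 9 of the 10 genes and 1.09 over the 4 genes within 1 Mb. It was 1.17 at 1 to 2 Mb, 1.32 at 2 to 5 Mb, 1.14 over the rest of chromosome 13 and 1.16 over other chromosomes. The value of 1.10 was that of RNASEH2B.

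**Figure D4:**
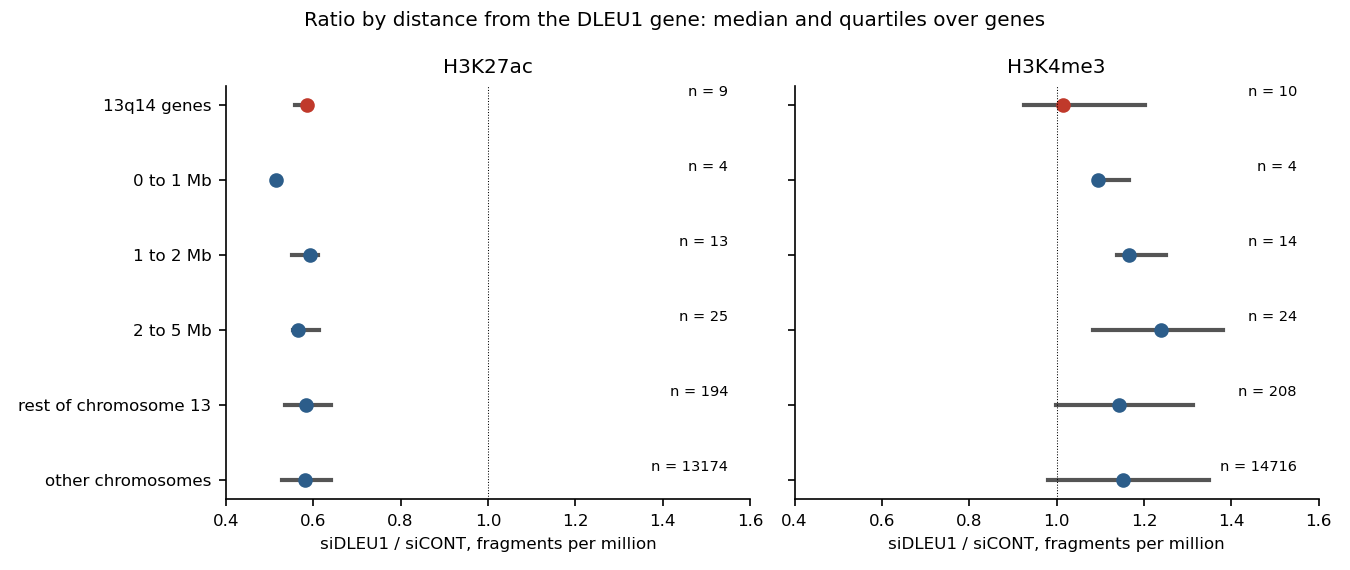
Ratio of FPM (siDLEU1 over siCONT) at the highest summit of each gene, by distance of the gene from DLEU1. Points are medians over genes, bars are quartiles, n is the number of genes called in both conditions, and the bins from 0 to 5 Mb hold genes other than the 10. These other genes can share regions with the 10. For H3K27ac the medians lie between 0.515 and 0.593, and for H3K4me3 between 1.01 (the 10 genes, in red) and 1.24.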

How the data were processed

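HSC3 cells transfected with siCONT or siDLEU1 were examined by ChIP-seq. After Ion Proton sequencing, the authors aligned the reads with bowtie2 (genome hg19) and ran MACS2 on each library, whose settings and control are not given in the sources used here. The deposited fold ratio is enrichment over local background. The −log10 values of p and q were deposited as MACS2 gave them. A display score was also deposited and not used. The 2 input libraries were not analysed here.

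Genes were those of GENCODE on GRCh37 with a curated RefSeq transcript of the same symbol (19136 protein-coding and 4995 lncRNA genes). Fragments and local background were solved from the fold and p of each peak. The p was matched within 0.001 (log10) for 100% of peaks in each list. Depth in reads assumes a mappable genome of 2.7 Gb and fragments as long as the shortest region (176 to 200 bp), and ratios between libraries also rest on the latter. Intervals are 95% Wilson intervals for shares and 95% exact (Clopper-Pearson) intervals for ratios, and cover counting error only. Recovery, overlap and intervals were tested on simulated data. The members and lists were chosen with earlier results of these data known. All 10 genes are named. Values are given for regions within 1 kb of a TSS in siCONT cells and for the 3 largest rises and falls in percentile of each mark. The other loci named, the joining of regions into loci and the division of DLEU1 and DLEU2 into parts were chosen after values were seen. The alternatives were a stricter q, equal numbers of regions, stitching within 1 kb, a 50% overlap, other ranks and other windows. Python 3.11.15, numpy 2.4.6, pandas 2.3.3, scipy 1.17.1 and matplotlib 3.10.9 were used.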

Additional observations from a re-analysis of the deposited data

How the results depend on the processing

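With no replicates, the siRNA cannot be told apart from the library, and depth limits what can be seen at weak regions of 22 to 40 fragments. No paired analysis was possible because neither siRNA has a second library of the same mark. For the share of control regions overlapped, stitching regions within 1 kb gave 100% of 12 for H3K27ac, gene bodies only gave 100% of 15, and regions within 1 kb of a TSS gave 100% of 17 for H3K4me3. Lower shares were 82.4% with the stricter q and 88.2% with 50% overlap for H3K27ac, and 64.7% with 50% overlap and 71.0% with stitching for H3K4me3. The ratio of covered length for H3K27ac was 0.70 with the stricter −log10 q (at least 10), 0.847 with stitching, 0.850 over gene bodies only and 0.799 at TSSs. For H3K4me3 it was 0.947, 0.919, 0.874 and 0.991, and 0.925 with equal numbers of regions. The median change in percentile for H3K27ac was -5.41 when ranked by −log10 p, -1.81 by fragments, -10.9 with the stricter q, -6.92 over gene bodies and 0.871 at TSSs, where its sign reversed. For H3K4me3 it was -0.494 by −log10 p, -0.880 by fragments and -0.428 at TSSs, and its sign reversed with the stricter q (0.034). On the log2 ratio of FPM the medians were -0.77 for H3K27ac and 0.020, again reversed in sign, for H3K4me3. For H3K27ac at TSSs, only RNASEH2B had another change in percentile than in the main setting (10.7 in place of -11.4). The cause of the H3K4me3 reversals was not tested.

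Among alternatives chosen after the data were seen, the median ratio over joined loci was 0.581 for H3K27ac and 1.03 for H3K4me3 with the stricter q, 0.622 and 1.12 with fragments scaled to equal fragment length, and 0.584 and 1.06 over gene bodies. H3K4me3 loci above the median numbered 1 of 36 when the reference was loci at TSSs, and 1 of 21 with the stricter q, in place of 2. Those below it numbered 8 with the TSS reference and 4 with the stricter q, in place of 6. For H3K27ac both counts were 0 in each alternative.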
